A study of Mus musculus with 28 samples.

Results

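Respiratory chain genes of the mouse liver were followed across the liver lobule and across its non-parenchymal cell classes. The members were all gene rows whose symbols start with nduf, uqcr, sdha to sdhd, cox4i, cox5, cox6, cox7, cox8 or atp5 and that held any UMI (unique molecular identifier, 1 per captured mRNA molecule), leaving out Cox6a2. They were 91 of 33856 gene rows in the table of cell pairs and 90 of 33924 in the table of single cells. All mice were C57BL/6 males kept on a reversed light cycle and fasted for 2 h, and their livers were dissociated by two-step collagenase perfusion under ketamine and xylazine. The pairs were hepatocytes sorted together with an attached CD31+ (endothelial) cell, made into 17 libraries; their 3 mice were 6 or 7 weeks old. The single cells were non-parenchymal cells made into 11 libraries; their 2 mice were 3 and 4 months old. Transcripts were read from their 3′ ends by MARS-seq. No source ties a well to a library or mouse. Each table therefore counts as 1 sample and no p-value is given. Intervals are exact 95% intervals that cover counting error only.

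The respiratory chain sits in the inner mitochondrial membrane. Complexes I and II pass electrons from NADH and succinate to ubiquinone, complex III passes them on to cytochrome c, and complex IV passes them to oxygen. ATP synthase uses the proton gradient that complexes I, III and IV build up. In the liver lobule, oxygen-rich blood enters around the portal vein and drains at the central vein, and periportal hepatocytes are known as the site of gluconeogenesis, urea synthesis and fatty acid oxidation. A core of the subunits is encoded by the mitochondrial genome; its 37 rows held 0 UMIs in both tables, so the values below are of nuclear genes.

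A total of 4619 of 4621 pairs were placed along the lobule by 24 hepatocyte landmark genes, such as Glul and Cyp2e1 around the central vein and Cyp2f2 and Pck1 around the portal vein. They were cut into 6 equal layers, layer 1 being the most pericentral. Layers 1 and 2 formed the pericentral zone (1540 pairs) and layers 5 and 6 the periportal zone (1539 pairs). The median pair held 10452 gene UMIs, and 2.12% of a median pair's UMIs came from the 82 subunit genes. Levels are UMIs per 1000000 gene UMIs. Whether a transcript of a pair came from the hepatocyte or from the CD31+ cell cannot be told apart. Pairs were also compared within blocks of 384 consecutive well numbers, the size of a plate, of which 16 held at least 50 pairs. A further block, block 1, held only 8 pairs. Block counts for the level of a single gene include it wherever a block had at least 10 UMIs of that gene over both zones. The 16 blocks differed in the subunit share of their UMIs (1.83% to 2.50%). They also differed in their median landmark score (0.38 to 0.74 on a scale from 0 at the portal to 1 at the central end). Blocks 3 to 9 and 41 had median scores of 0.38 to 0.47 and a median subunit share of 2.03%. Blocks 10 to 16 had scores of 0.57 to 0.68 and a share of 2.25%. Block 2, with 67 pairs, ran against this order, with the highest median score (0.74) and the lowest share (1.83%) of the 16. Zone and block are thus partly confounded in values pooled over all pairs. Pericentral and periportal pairs also differed in the summed level of 14 endothelial markers (747 against 898 per 1000000) and of 10 hepatocyte markers (119095 against 177304). The 5 cholangiocyte markers had 40 UMIs in pericentral and 323 in periportal pairs, with Krt19 and Krt7 at 0. The part of these differences in the results below was not tested.

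The make-up of the chain shifted along the lobule, while its total hardly did. The 82 subunit genes together had 21734 UMIs per 1000000 in pericentral and 21010 in periportal pairs, a log2 ratio of 0.05 that came to 0.009 within blocks and to −0.04 relative to the median gene. Complexes I and IV took a larger share of the subunit UMIs in pericentral pairs, and complex II and ATP synthase a larger share in periportal pairs. These shares do not depend on how the libraries are scaled. Each kept its direction within blocks and under every alternative tried.

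Complex I held 33.8% of subunit UMIs in pericentral and 33.1% in periportal pairs, a log2 ratio of 0.031 with an interval of 0.020 to 0.042, and its share was higher pericentrally in 16 of 16 blocks. Complex IV held 19.2% in pericentral and 18.4% in periportal pairs (log2 ratio 0.064, 0.049 to 0.078) and was higher pericentrally in 15 of 16 blocks. Within blocks the log2 ratio of complex IV was smaller, at 0.030, while that of complex I was 0.047. These are small differences that recurred in nearly every block. ATP synthase held 27.1% in pericentral and 27.9% in periportal pairs (log2 ratio −0.043, −0.055 to −0.031) and was lower pericentrally in 16 of 16 blocks. Complex II, the smallest complex with 4 genes, held 5.28% in pericentral and 5.73% in periportal pairs (log2 ratio −0.12, −0.15 to −0.092), which was the largest shift of the 5, and it was lower pericentrally in 15 of 16 blocks. Complex III held 12.8% in pericentral and 13.2% in periportal pairs, and its share was lower pericentrally in 9 of 16 blocks, so the blocks gave it no common direction.

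**Figure D1:**
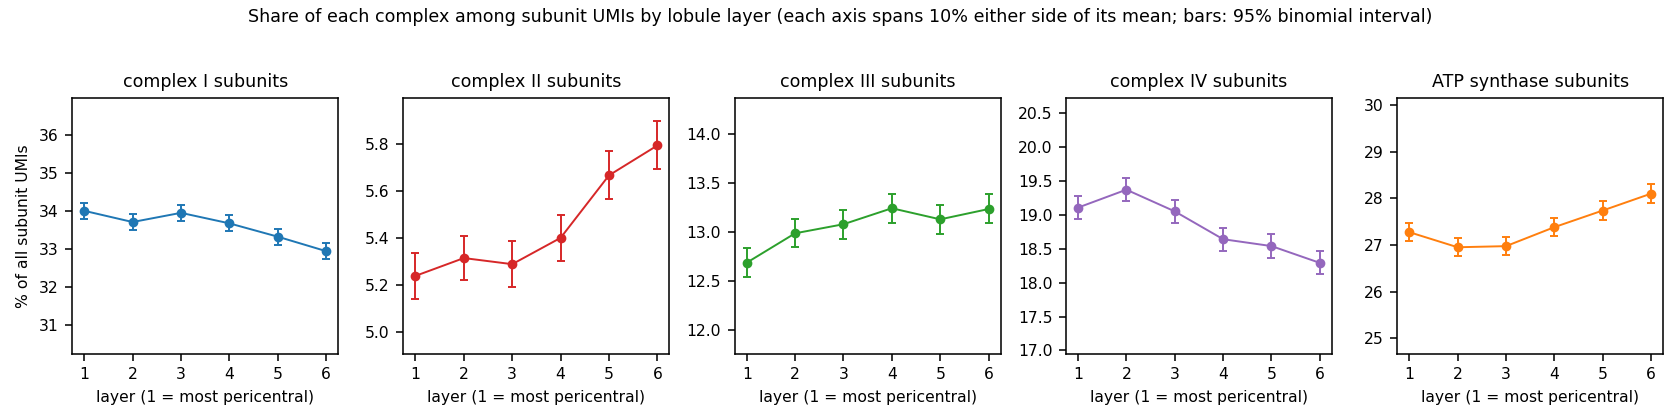
Share of all subunit UMIs (percent, y axis) held by each complex in lobule layers 1 (pericentral) to 6 (periportal), with exact 95% intervals for counting error. Complex II runs between 5.24% in layer 1 and 5.80% in layer 6, and complex IV between 19.4% in layer 2 and 18.3% in layer 6.

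From layer 1 to layer 6 the share of complex II was 5.24, 5.32, 5.29, 5.40, 5.67 and 5.80%. The share of complex IV was 19.1, 19.4, 19.1, 18.6, 18.5 and 18.3% in the same order. The change lay mainly in layers 4 to 6, with the 3 layers on the pericentral side close to each other. ATP synthase had its lowest share in layer 2 (27.0%) and its highest in layer 6 (28.1%), against 27.3% in layer 1.

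**Figure D2:**
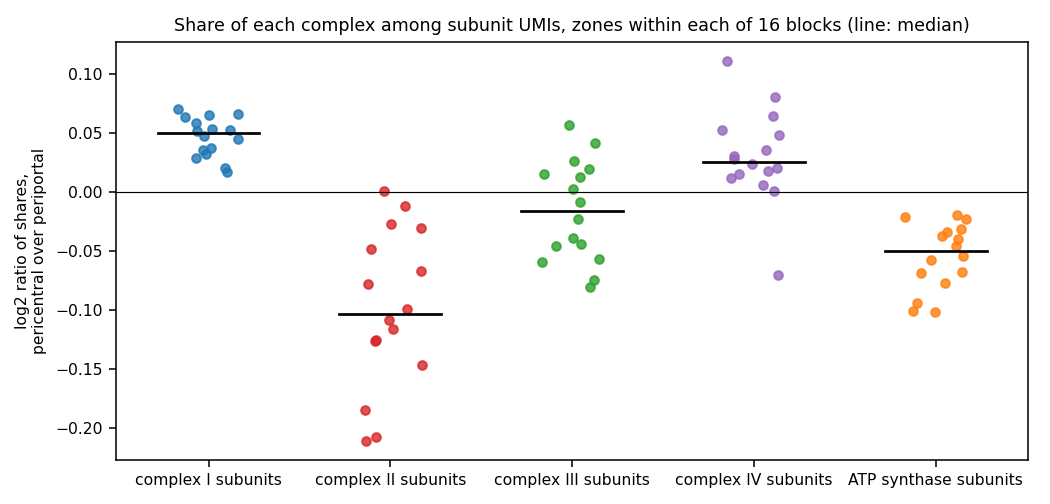
Log2 ratio of the share of subunit UMIs held by each complex, pericentral over periportal zone, in each of the 16 well-number blocks (line: median). The complex I values are all positive and the ATP synthase values are all negative.

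Set against the spread of other genes, single members differed little between the zones. Of the 84 members with at least 100 UMIs over both zones, 9 were at least 1.2-fold higher in pericentral pairs and 3 in periportal pairs, that is 10.7% and 3.57% of them. Among all 9530 genes measured, 26.3% and 11.1% were. Within blocks the members numbered 6 and 3, against 23.2% and 10.7% of all genes. The standard deviation of the log2 ratio was 0.23 over the members and 0.50 over all genes. Among genes with at least 2000 UMIs, where counting error is small, it was 0.15 over 71 members and 0.48 over all; 5 of these members were past 1.2-fold pericentrally and 2 periportally, against 26.1% and 9.06% of such genes. The members' median log2 ratio was 0.046 and that of all genes 0.088. Scaled to the median gene, every ratio is lower by 0.088, which leaves 3 members past the fold pericentrally and 7 periportally, against 1720 and 1603 of the 9530 genes, and turns the sign of members between 0 and 0.088, such as Sdha, Uqcrc2 and Uqcr11.

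Members were highest at the ends of the lobule more than in its middle layers. Layer 1 held the highest level of 25 members, layer 2 of 21 and layer 6 of 24, against 6, 4 and 4 in layers 3, 4 and 5. Of all 9530 genes, 2920, 1468, 1444, 1508, 1043 and 1147 were highest in layers 1 to 6 in that order. Layer 6 thus held 28.6% of members, and layer 1 held 29.8% of members and 30.6% of all genes.

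**Figure D3:**
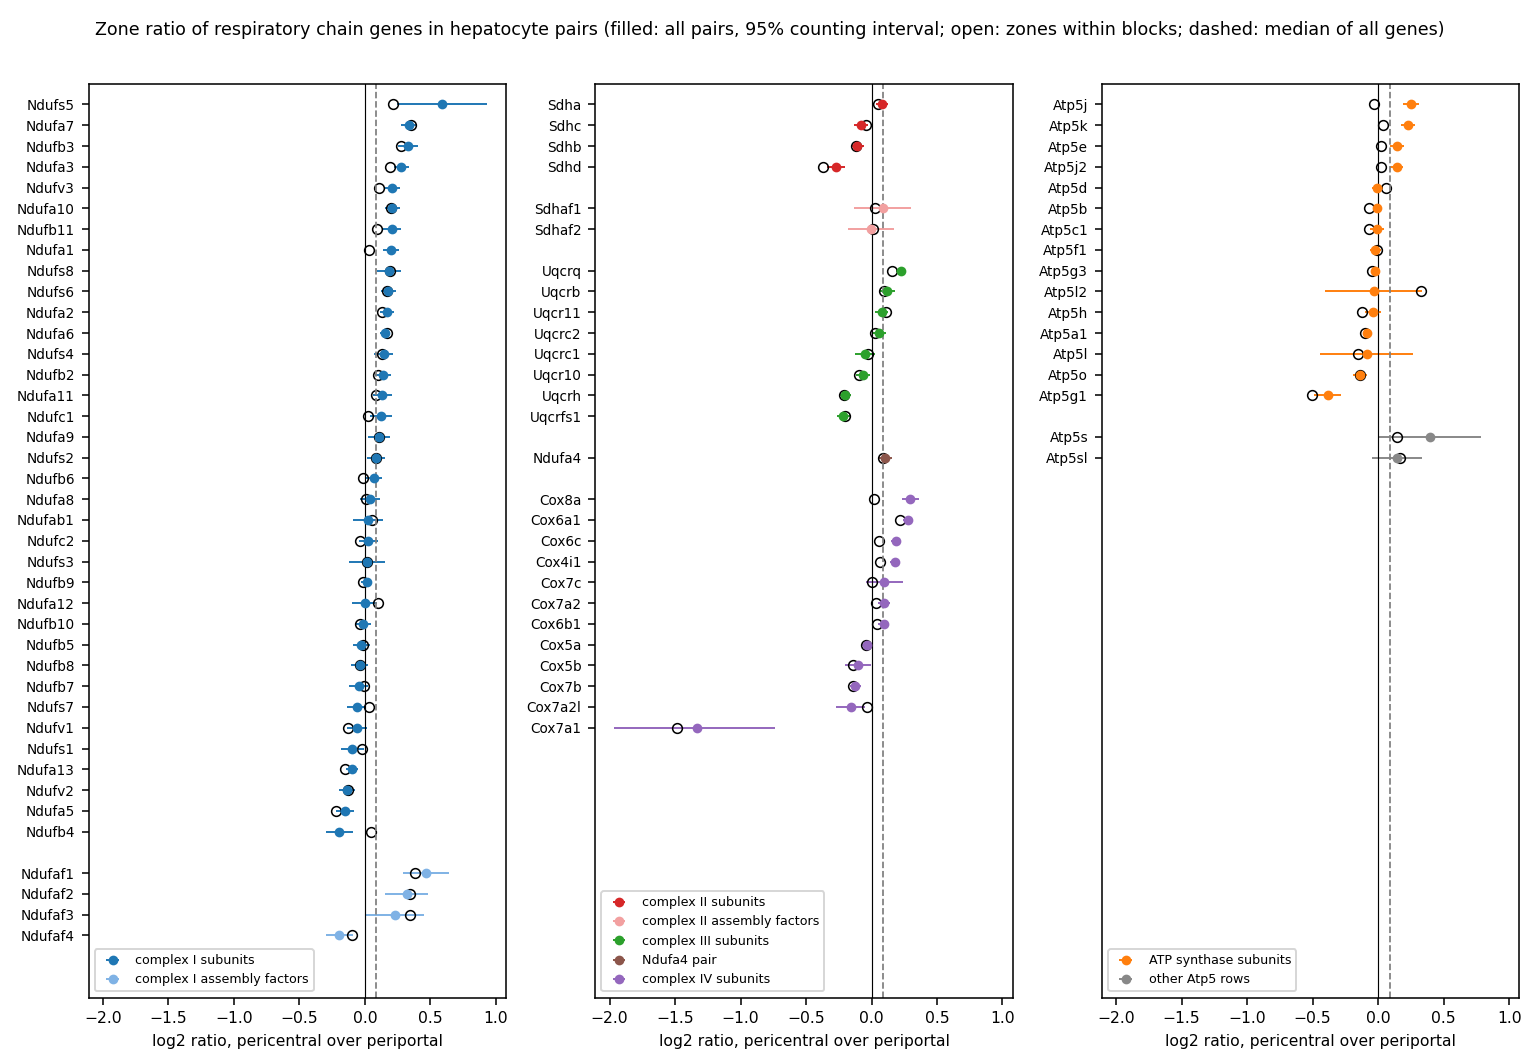
Log2 ratio of the pericentral over the periportal zone for the measured members, grouped by complex, with exact 95% intervals for counting error. Open points give the ratio within blocks, and the dashed line is the median of all genes. Most members lie within 1.2-fold, with Cox7a1, Atp5g1 and Sdhd past it on the periportal side.

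Complex I, the NADH dehydrogenase, had 7355 UMIs per 1000000 in pericentral and 6959 in periportal pairs over 36 genes (log2 ratio 0.08, 0.07 to 0.09, and 0.06 within blocks). Relative to the median gene this was −0.01, so the direction of its level depends on the scaling, while its share of the chain does not. The difference in share lay in the accessory subunits, which surround the catalytic core: the 29 accessory genes held 29.4% of subunit UMIs in pericentral and 28.4% in periportal pairs and were higher pericentrally in 16 of 16 blocks. The 7 core genes, which carry the redox centres, held 4.48% in pericentral and 4.71% in periportal pairs and were higher pericentrally in 7 of 16 blocks.

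The accessory subunit Ndufa7 had 4672 UMIs in pericentral and 3646 in periportal pairs, that is 244 and 193 per 1000000 (log2 ratio 0.34, 0.27 to 0.40). Its levels from layer 1 to layer 6 were 247, 241, 233, 216, 204 and 182 per 1000000, and it was higher pericentrally in 17 of 17 blocks. Its level was thus lower in each layer than in the one before. Across the blocks its level ran between 174 and 302 (median 250) pericentrally and between 144 and 237 (median 199) periportally, so the ranges overlap between blocks even though each block had the same direction. Ndufb3, an accessory subunit of the membrane arm, had 158 per 1000000 in pericentral and 126 in periportal pairs (log2 ratio 0.33) and was higher pericentrally in 15 of 17 blocks. Ndufa3, another accessory subunit, had 265 and 219 in the same order (log2 ratio 0.28, 0.19 within blocks). Ndufa6, an accessory subunit of the matrix arm and among the members with the most UMIs, had 627 in pericentral and 565 in periportal pairs, short of 1.2-fold yet higher pericentrally in 17 of 17 blocks.

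On the periportal side of complex I, Ndufa5, an accessory subunit of the matrix arm, had 169 per 1000000 in pericentral and 188 in periportal pairs (log2 ratio −0.15, −0.22 within blocks). Ndufb4, an accessory subunit of the membrane arm, had 77.6 and 88.9 in the same order (log2 ratio −0.20), but 0.05 within blocks, so its direction turned. Ndufs5 had the largest pericentral ratio of the complex on few UMIs: 180 in pericentral and 118 in periportal pairs (log2 ratio 0.59, 0.24 to 0.93), and 0.21 within blocks. Its row may share reads with near-identical copies, which makes its value uncertain.

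The 4 assembly factors of complex I did not share a direction. Ndufaf1, which helps to build the membrane arm, had 654 UMIs in pericentral and 466 in periportal pairs, or 34.1 and 24.7 per 1000000 (log2 ratio 0.47, 0.29 to 0.64). It was higher pericentrally in 16 of 16 blocks, with block medians of 31.3 in pericentral and 24.4 in periportal pairs. Ndufaf2 had 36.6 in pericentral and 29.4 in periportal pairs (log2 ratio 0.32) and was higher pericentrally in 14 of 16 blocks. Ndufaf3 had a log2 ratio of 0.23, and Ndufaf4 was lower pericentrally, with 77.5 against 88.8 per 1000000 (log2 ratio −0.20, −0.10 within blocks). Ndufa4, named for complex I although its protein is found with complex IV, had 367 in pericentral and 341 in periportal pairs, and its paralog Ndufa4l2 had 23 UMIs in all pairs.

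Complex II, succinate dehydrogenase, is also an enzyme of the TCA cycle. Its genes had 1147 UMIs per 1000000 in pericentral and 1204 in periportal pairs (log2 ratio −0.07, −0.10 to −0.04, and −0.09 within blocks). The membrane anchor Sdhd carried most of that difference: 3288 UMIs in pericentral and 3911 in periportal pairs, or 172 and 207 per 1000000 (log2 ratio −0.27, −0.34 to −0.20, and −0.37 within blocks). Across layers 1 to 6 it had 166, 177, 178, 190, 200 and 215 per 1000000, the lowest at the central vein and the highest at the portal vein, and it was lower pericentrally in 15 of 17 blocks. The iron-sulfur subunit Sdhb had 336 in pericentral and 362 in periportal pairs (log2 ratio −0.11). The other anchor, Sdhc, had 272 and 287 in the same order (log2 ratio −0.08). The flavoprotein Sdha went the other way, with 368 in pericentral and 348 in periportal pairs (log2 ratio 0.08, 0.03 to 0.13), but only in 10 of 17 blocks. The 2 assembly factors of complex II together had 47.0 in pericentral and 46.0 in periportal pairs.

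Complex III, the cytochrome bc1 complex, had nearly equal summed levels in the zones, 2790 per 1000000 in pericentral and 2769 in periportal pairs (log2 ratio 0.01, −0.006 to 0.03). Its 8 genes nonetheless split. Uqcrq, a small subunit known as a ubiquinone-binding protein, had 717 in pericentral and 613 in periportal pairs (log2 ratio 0.23, 0.19 to 0.26) and was higher pericentrally in 17 of 17 blocks. The hinge protein Uqcrh, which contacts cytochrome c1, had 7807 UMIs in pericentral and 8844 in periportal pairs, or 408 and 469 per 1000000 (log2 ratio −0.20, −0.25 to −0.16), and was lower pericentrally in 17 of 17 blocks. The Rieske iron-sulfur protein Uqcrfs1 had 330 in pericentral and 384 in periportal pairs (log2 ratio −0.22) and was lower pericentrally in 15 of 17 blocks. Opposite members thus cancelled in the sum.

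The other 5 genes of complex III lay closer together. The core protein Uqcrc2 had 300 per 1000000 in pericentral and 289 in periportal pairs, and its partner Uqcrc1 had 143 and 148 in the same order. Among the small subunits, Uqcr11 had 342 in pericentral and 324 in periportal pairs and Uqcr10 had 288 and 302, while Uqcrb had a log2 ratio of 0.12. None of the 5 reached 1.2-fold.

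**Figure D4:**
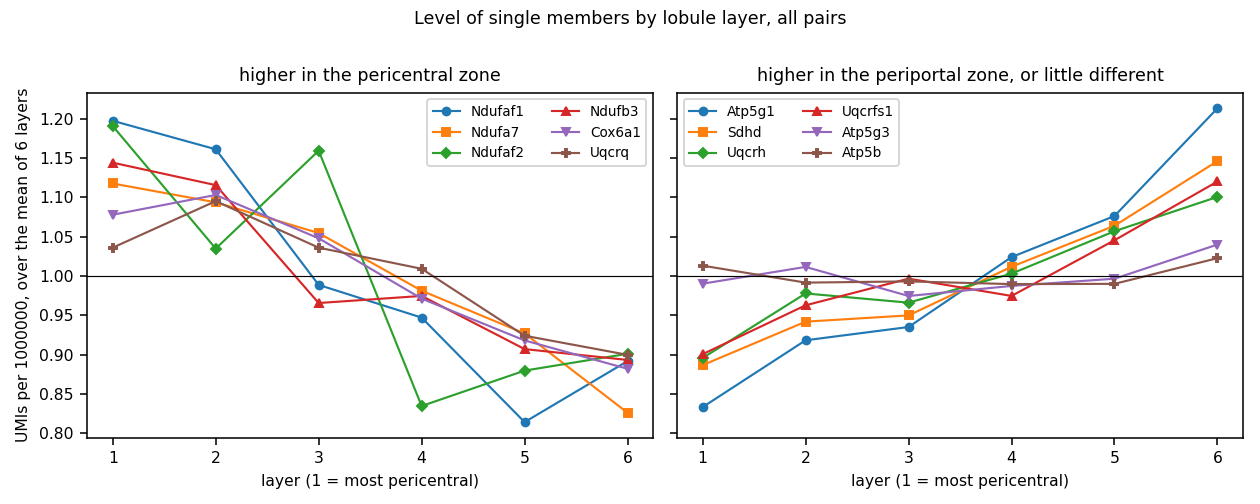
Level of selected members in lobule layers 1 (pericentral) to 6 (periportal), each over its mean of the 6 layers. Ndufa7 is highest in layer 1, and Sdhd and Atp5g1 are highest in layer 6.

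Complex IV, cytochrome c oxidase, has tissue isoforms for several subunits, and nearly all UMIs in pairs came from the liver or ubiquitous form. Its summed level was 4182 per 1000000 in pericentral and 3869 in periportal pairs (log2 ratio 0.11, 0.10 to 0.13), and 0.04 within blocks; relative to the median gene it was 0.02, and it was −0.0017 with the 20 genes of most UMIs left out. Cox6a1, the liver form of subunit 6a, had 16036 UMIs in pericentral and 13025 in periportal pairs, or 837 and 691 per 1000000 (log2 ratio 0.28, 0.24 to 0.31). Cox6a1 was higher pericentrally in 17 of 17 blocks, with block levels of 609 to 1164 in pericentral and 563 to 982 in periportal pairs. The ubiquitous Cox8a had 225 in pericentral and 183 in periportal pairs (log2 ratio 0.30), yet only 0.02 within blocks, and was higher in 8 of 17. Cox4i1, the main isoform of the subunit that binds ATP, had 648 in pericentral and 573 in periportal pairs (log2 ratio 0.18, 0.06 within blocks). Cox6b1, which faces cytochrome c, had 449 and 421 in the same order, and Cox7a2, the liver form of subunit 7a, had 404 and 379.

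The muscle form of subunit 7a, Cox7a1, had the largest ratio of the 84 measured members: 33 UMIs in pericentral and 82 in periportal pairs, or 1.72 and 4.35 per 1000000 (log2 ratio −1.34, −1.96 to −0.74). Across layers 1 to 6 it had 1.71, 1.73, 1.28, 2.92, 3.20 and 5.48 per 1000000. It was found in 141 pairs, 12 of them with more than 1 UMI. Endothelial-like and hepatocyte-like single cells both had 0 UMIs of Cox7a1. The interval of endothelial-like cells reached 6.19 per 1000000, above the level in periportal pairs, so the 0 does not tell the cells of a pair apart. Cox7a2l had 69.2 in pericentral and 77.2 in periportal pairs (log2 ratio −0.16, −0.03 within blocks). The remaining isoforms were at the edge of detection in pairs. The testis forms Cox6b2 and Cox7b2 had 15 and 3 UMIs, the muscle form Cox8b 2 UMIs and the lung form Cox4i2 1 UMI, and Cox8c was listed at 0.

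ATP synthase had 5891 UMIs per 1000000 in pericentral and 5867 in periportal pairs (log2 ratio 0.006, −0.006 to 0.018), and −0.05 within blocks. The catalytic β subunit Atp5b was the member with the most UMIs, found in 99.2% of pairs, at 997 in pericentral and 1001 in periportal pairs. Its partner Atp5a1, the α subunit, had 752 in pericentral and 797 in periportal pairs (log2 ratio −0.08). Atp5o, which couples the catalytic head to the stalk, had 287 and 316 in the same order (log2 ratio −0.14). Atp5j, the coupling factor F6 of the stalk, had 262 in pericentral and 220 in periportal pairs (log2 ratio 0.25), but −0.03 within blocks, so its direction turned. Atp5s, an accessory factor, had 131 UMIs in pericentral and 98 in periportal pairs (log2 ratio 0.40, 0.008 to 0.79). Within blocks its log2 ratio was 0.15 (−0.24 to 0.54). It was higher pericentrally in 6 of the 9 blocks with enough UMIs to be counted. Its block levels reached 37.1 per 1000000, against a block median of 4.05.

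The ring of c subunits that turns in the membrane is encoded by 3 genes, Atp5g1, Atp5g2 and Atp5g3, whose mature proteins are identical. Atp5g1 was lower and Atp5g3 nearly level around the central vein. Atp5g1 had 1370 UMIs in pericentral and 1762 in periportal pairs, or 71.5 and 93.4 per 1000000 (log2 ratio −0.39, −0.49 to −0.28, and −0.50 within blocks). Atp5g3 had 881 in pericentral and 896 in periportal pairs, and Atp5g2 had 40 UMIs in all pairs. Atp5g1 thus gave 7.50% (7.12 to 7.89) of the UMIs of the 3 genes in pericentral pairs and 9.43% (9.02 to 9.86) in periportal pairs. From layer 1 to layer 6 its share was 7.23, 7.75, 8.16, 8.76, 9.09 and 9.75%, higher in each layer than in the one before. It was lower pericentrally in 16 of 16 blocks, at 5.41 to 9.63% (median 6.85) in pericentral and 7.36 to 12.3% (median 9.41) in periportal pairs.

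Promoter sequences are given for 4 members that behaved differently along the lobule, Cox6a1 (pericentral), Atp5g1 and Uqcrh (periportal) and Atp5g3 (nearly level). They are the 200 bases before the gene start in the RefSeq table of build GRCm38.p6, 5′ to 3′ on the gene's strand, which is the minus strand in all 4. Capitals mark a match, on either strand, to 1 of the 4 motifs searched. The windows are chr5:115348959-115349158 for Cox6a1, chr11:96075632-96075831 for Atp5g1, chr2:73911327-73911526 for Atp5g3 and chr4:116075071-116075270 for Uqcrh.
Cox6a1: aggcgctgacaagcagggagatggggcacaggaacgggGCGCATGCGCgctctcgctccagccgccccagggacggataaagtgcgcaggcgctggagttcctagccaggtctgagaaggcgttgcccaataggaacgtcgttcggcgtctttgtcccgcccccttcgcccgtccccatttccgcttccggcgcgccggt
Atp5g1: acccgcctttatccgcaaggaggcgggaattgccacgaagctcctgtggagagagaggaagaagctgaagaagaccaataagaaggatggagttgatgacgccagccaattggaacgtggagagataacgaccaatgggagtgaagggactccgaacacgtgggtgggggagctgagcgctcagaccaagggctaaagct
Atp5g3: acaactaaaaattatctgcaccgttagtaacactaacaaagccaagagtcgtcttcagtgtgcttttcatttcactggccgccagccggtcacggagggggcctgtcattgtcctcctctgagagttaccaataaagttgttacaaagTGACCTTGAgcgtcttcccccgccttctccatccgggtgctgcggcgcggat
Uqcrh: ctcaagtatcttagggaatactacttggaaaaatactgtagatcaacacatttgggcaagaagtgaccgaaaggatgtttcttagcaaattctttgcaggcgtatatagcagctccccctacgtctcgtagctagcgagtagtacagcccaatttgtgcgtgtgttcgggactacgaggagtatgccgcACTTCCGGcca
The capitals of Cox6a1 are an NRF1 motif found on both strands with overlap, those of Atp5g3 an ERR motif on the opposite strand, and those of Uqcrh an ETS/GABPA motif on the opposite strand. The window of Atp5g1 holds no match to the letters searched.

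These motifs belong to factors known to act on genes of mitochondrial proteins. The NRF1 motif (GCGCATGCG) was in 9 of 76 members with a promoter entry, 11.8%, against 1.81% of 27025 genes, searched over 300 bases around the start. The YY1 motif (AAGATGGC) was in 10 members, 13.2%, against 2.88% of all. The ETS/GABPA motif (CCGGAAGT) was in 5 members, 6.58%, against 4% of all, and the ERR motif (TCAAGGTCA) in 2, Atp5g3 and Sdhd, 2.63% against 0.407%. The median log2 zone ratio was 0.058 over the 8 measured members with an NRF1 motif and 0.027 over the 64 without. It was 0.13 over the 10 with a YY1 motif and 0.022 over the 62 without. The other motifs went the opposite way. The median was 0.017 over the 5 members with an ETS/GABPA motif and 0.037 over the 67 without. For the ERR motif it was −0.15 over 2 members and 0.052 over the 70 without. Cox6a1 (log2 ratio 0.28) and Ndufaf4 (−0.20) both held the NRF1 motif, and Cox8a (0.30) and Uqcrh (−0.20) both held the ETS/GABPA motif.

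Regulators and partners of the chain were listed beside the members. The coactivators Ppargc1a and Ppargc1b, which drive expression of mitochondrial genes, were lower pericentrally: Ppargc1a had 182 UMIs in pericentral and 544 in periportal pairs (log2 ratio −1.60), and Ppargc1b had 254 and 460 in the same order (log2 ratio −0.88). Both were lower pericentrally in 15 of 15 blocks. Of 13 measured regulators, 2 were at least 1.2-fold higher pericentrally and 3 periportally, the third periportal one being their partner receptor Esrra (436 UMIs in pericentral and 556 in periportal pairs, log2 ratio −0.37).

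Of 12 further subunits and carriers, 4 were 1.2-fold higher pericentrally and 1 periportally. That one was Cycs, cytochrome c itself, with a log2 ratio of −0.34, lower pericentrally in 12 of 16 blocks. The ATP synthase inhibitor Atpif1 had a log2 ratio of 0.41 and the carrier Ucp2 of 1.06. Of 18 measured assembly factors named outside the prefixes, 8 were higher pericentrally and 0 periportally (median 0.24), led by Sco2, a copper chaperone of complex IV, with 1001 UMIs in pericentral and 604 in periportal pairs (log2 ratio 0.71). Of 14 TCA cycle genes, 4 were higher pericentrally and 1 periportally (median 0.04). Citrate synthase, Cs, had 2151 UMIs in pericentral and 1230 in periportal pairs (log2 ratio 0.78), and Ogdh a log2 ratio of −0.43. Mitochondrial ribosome genes had a median of 0.19 with 18 of 75 past the fold pericentrally and 1 periportally, and cytosolic ribosome genes a median of 0.13 with 42 of 117 and 5. These counts stand beside the same 26.3% and 11.1% of all genes.

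In the non-parenchymal table, lymphocytes and dendritic cells had higher levels of respiratory chain transcripts than endothelial cells. A total of 2692 of 3720 wells had at least 300 UMIs (median of all wells 526.5, many fewer than in pairs), and the wells were clustered without the respiratory chain rows and named by markers. Summed subunits reached 16212 UMIs per 1000000 (15717 to 16720) in 147 conventional dendritic cell-like wells and 16051 (15501 to 16617) in 250 NK cell-like wells. They reached 14875 (14146 to 15631) in 110 plasmacytoid dendritic cell-like wells and 14246 (13956 to 14540) in 664 T cell-like wells. Neighbours in this order of 4 classes were not separated by their counting intervals, which overlap between each class and the next. B cell-like wells (283) had 12204 (11769 to 12651) and Kupffer cell-like wells (290) 10928 (10589 to 11276), and the 869 endothelial-like wells had the lowest level of these classes, 9727 (9478 to 9981).

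Against endothelial-like wells, the log2 ratio was 0.74 in conventional dendritic cell-like, 0.72 in NK cell-like, 0.61 in plasmacytoid dendritic cell-like, 0.55 in T cell-like, 0.33 in B cell-like and 0.17 in Kupffer cell-like wells. Each stayed above 0 in both ranges of well numbers, the lowest being 0.08 for Kupffer cell-like wells in the upper range. The conventional dendritic cell-like cluster also had raised monocyte markers, and 3 of the 4 cycling markers were raised in it, against 1 in T cell-like wells. The part of these markers in its level was not tested. Hepatocyte marker levels were between 6577 per 1000000 in T cell-like and 12626 in endothelial-like wells, against 93196 in hepatocyte-like wells, and their part in the class differences was not tested. Median UMIs per well ran from 1346 in conventional dendritic cell-like to 567 in endothelial-like wells.

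**Figure D5:**
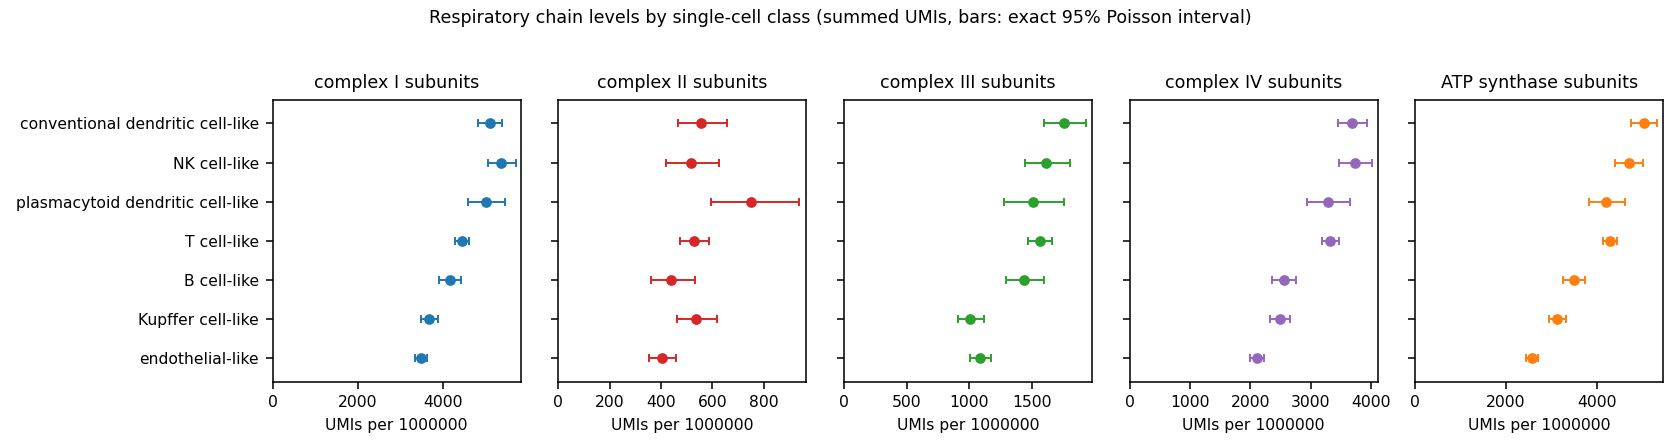
Level of each complex (summed UMIs per 1000000 gene UMIs) in each single cell class, with exact 95% intervals for counting error. ATP synthase has 5026 in conventional dendritic cell-like, 3125 in Kupffer cell-like and 2565 in endothelial-like wells. Complex I has 5098, 3683 and 3480 in the same order.

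The classes differed by complex. ATP synthase had a log2 ratio over endothelial-like wells of 0.97 in conventional dendritic cell-like, 0.87 in NK cell-like, 0.74 in T cell-like and 0.71 in plasmacytoid dendritic cell-like wells, and of 0.44 in B cell-like and 0.28 in Kupffer cell-like wells. Complex I had lower ratios in each of these classes, at 0.55, 0.63, 0.35 and 0.52, and 0.26 and 0.08, in the same order. As a share of subunit UMIs, ATP synthase made up 31.0% in conventional dendritic cell-like and 26.4% in endothelial-like wells, and complex I 31.2% in T cell-like and 35.8% in endothelial-like wells. In Kupffer cell-like wells the intervals of complexes I (−0.02 to 0.18) and III (−0.29 to 0.08) included 0.

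Members that differed 2-fold were mostly higher than in endothelial-like wells. In conventional dendritic cell-like wells 21 of 77 measured members were at least 2-fold higher and 0 lower, against 18.6% and 32.9% of all genes. In NK cell-like wells the counts were 20 higher and 2 lower of 76 (all genes 18% and 29.4%), and in plasmacytoid dendritic cell-like wells 17 and 2 of 75 (17.5% and 34.1%). T cell-like wells had 11 and 0 of 80 (21.8% and 24.6%), B cell-like wells 4 and 1 of 77 (16.5% and 30.7%) and Kupffer cell-like wells 4 and 3 of 77 (14% and 26.3%). Members 2-fold lower were thus below the background share in all 6 classes. Members 2-fold higher were also below it in T cell-like, B cell-like and Kupffer cell-like wells, and above it in the other classes. The background includes genes with as few as 20 UMIs over both classes and was not matched to the members by level. The cytosolic ribosome genes, listed for comparison, had median log2 ratios of 1.46 in conventional dendritic cell-like, 1.48 in NK cell-like, 1.21 in plasmacytoid dendritic cell-like, 1.83 in T cell-like, 1.89 in B cell-like and 0.16 in Kupffer cell-like wells. In the same order of classes, the medians of the mitochondrial ribosome genes were 0.61, 0.44, 0.33, 0.48, 0.072 and −0.065, those of the members 0.64, 0.65, 0.57, 0.51, 0.34 and 0.13, and those of all genes −0.33, −0.16, −0.28, −0.0033, −0.29 and −0.27.

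The small ε subunit of ATP synthase, Atp5e, led the higher members in several classes. It had 713 UMIs per 1000000 in conventional dendritic cell-like (178 UMIs) and 146 in endothelial-like wells (87 UMIs), a 4.88-fold difference, with 542 in plasmacytoid dendritic cell-like, 481 in NK cell-like, 440 in B cell-like and 382 in T cell-like wells. Cox5a, a nuclear subunit of complex IV, had 410 in Kupffer cell-like and 116 in endothelial-like wells, the largest fold of Kupffer cell-like wells at 3.54, while conventional dendritic cell-like wells had 356. Atp5f1, the b subunit of the stalk, had 517 in conventional dendritic cell-like, 332 in Kupffer cell-like and 158 in endothelial-like wells. Atp5e had 284 in Kupffer cell-like wells, so these 3 genes were all higher in conventional dendritic and in Kupffer cell-like wells than in endothelial-like wells.

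The other members with the largest class ratios were mostly high in several classes. Ndufa13, an accessory subunit of complex I, had a log2 ratio of 1.81 in NK cell-like wells and was 2.39-fold higher in T cell-like and 2.09-fold higher in plasmacytoid dendritic cell-like wells than in endothelial-like wells. Ndufa11, another one, had 219 per 1000000 in plasmacytoid dendritic cell-like and 77.2 in endothelial-like wells, and Cox5b had 152 and 55.4 in the same order, with 125 in NK cell-like and 120 in conventional dendritic cell-like wells. Cox7a2l had 363 per 1000000 in T cell-like, 350 in B cell-like and 164 in endothelial-like wells. Uqcrfs1 had 212 in conventional dendritic cell-like, 185 in B cell-like and 87.2 in endothelial-like wells. Sdhd was at least 2.09-fold higher in all 6 classes than in endothelial-like wells (45.3), with 128 in conventional dendritic cell-like and 114 in Kupffer cell-like wells. Atp5l had 21 UMIs in T cell-like and 5 in endothelial-like wells, and its row may share reads with a pseudogene.

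The lower members rested on few UMIs. In Kupffer cell-like wells, Ndufaf2 had 2 UMIs and Ndufaf4 4 UMIs, against 24 and 25 in endothelial-like wells, and the 4 complex I assembly factors together had 33.5 per 1000000, against 114 (log2 ratio −1.77, −2.79 to −0.87). The core subunit Ndufs1 had 7 UMIs in Kupffer cell-like and 25 in endothelial-like wells. Another core subunit, Ndufs8, had 7 UMIs in NK cell-like and 52 in endothelial-like wells (log2 ratio −1.32). The accessory subunit Ndufc2 had 18 UMIs in B cell-like and 98 in endothelial-like wells (log2 ratio −1.15), and Uqcrc2 had 10 in plasmacytoid dendritic cell-like and 101 in endothelial-like wells (log2 ratio −0.83, short of 2-fold).

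The Atp5g1 share of c subunit UMIs was above that of pairs in most non-parenchymal classes. It was 20.4% in plasmacytoid dendritic cell-like, 17.9% in Kupffer cell-like, 16.8% in conventional dendritic cell-like, 16.5% in NK cell-like, 13.9% in T cell-like and 12.5% in B cell-like wells, and 16.4% (10.7 to 23.6) in endothelial-like wells, from 23 Atp5g1 UMIs, against the 7.50% and 9.43% of pericentral and periportal pairs. Only the interval of B cell-like wells (6.83 to 20.4) among these 7 classes reached down to the periportal value. Of 79 members measured in both tables, 71 had a higher level in pairs than in endothelial-like wells, with a median log2 ratio of 1.08. Of all 7459 genes measured in the same way 20.4% did, with a median of −1.42. A gene entered this comparison at a lower level in pairs than in endothelial-like wells, which favours genes lower in pairs. The values over all genes are thus not matched to the members by level. Uqcrq had 673 per 1000000 in pairs and 124 in endothelial-like wells, Atp5g3 880 and 195, and Ndufa4 354 and 78.9. Cox7a2l ran the other way, with 73.3 in pairs and 164 in endothelial-like wells. The tables differ in the age of the mice and in depth and were scaled separately, so these values are set side by side without a test.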

How the data were processed

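Both deposited tables give raw UMI counts for each gene symbol in each well; their values are whole numbers with unequal totals. Per the submitters' processing notes, reads were converted with bcl2fastq 2.15.0.4 and mm9 was the genome build. Which aligner and annotation the authors used is not given in the sources used. The 92 spike-in rows (0.715% of UMIs in pairs, 52.8% in single cells) were left out, leaving 56976156 gene UMIs in pairs and 2660172 in single cells. Members, landmarks, markers and lists were chosen with earlier results of these data known.

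Pairs needed at least 1000 UMIs and 20 landmark UMIs. Of 25 landmarks, 24 were found; Cyp2e1 gave 52.3% of the pericentral and Pck1 61.7% of the periportal landmark UMIs. A pair's score was its pericentral landmark UMIs over their mean, divided by the sum of that and the periportal equivalent. UMIs were summed per zone. Ratios have exact conditional binomial, shares Clopper-Pearson and levels Poisson intervals, at 95%. A gene counted as past the fold at 1.2-fold with at least 100 UMIs over both zones, landmarks left out.

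Single cells (at least 300 UMIs, scaled to 1000) were clustered with scanpy 1.11.5 (Leiden, resolution 1.0, 30 components of 2000 variable genes, 15 neighbours) and named where at least 3 markers were 2-fold higher. No doublet caller was run. Ratios there counted at 2-fold with at least 20 UMIs. No well is in both tables.

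Members named were the 10 largest zone ratios in each direction, the isoforms, all of complexes II and III, the 3 largest class ratios in each direction and the 5 with most UMIs. The ratio and interval functions were tested on simulated data. Of 91 members, 76 matched a RefSeq promoter entry (GRCm38.p6), 3 by an older symbol. Python 3.11.15, numpy 2.4.6, scipy 1.17.1 and pandas 2.3.3 were used.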

Additional observations from a re-analysis of the deposited data

Results flagged for a closer look

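Cox6a2, the heart and muscle form of complex IV subunit 6a, is not among the members but had a signal in the single-cell table. It had 151 UMIs there in 65 of 3720 wells, and 138 of these UMIs lay in 53 of 110 plasmacytoid dendritic cell-like wells. Endothelial-like wells had 1 UMI, T cell-like wells 4, and B cell-like and Kupffer cell-like wells 3 each. In the 4621 pairs it was at 0 UMIs.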

How the results depend on the processing

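No paired analysis was possible because wells cannot be tied to mice or libraries, so leaving out each block stood in for leaving out replicates. The shares of the 5 complexes and of Atp5g1 kept their direction under every alternative, but the levels did not. Scaled to the median gene, the log2 ratios were −0.0084 for complex I, −0.015 for its assembly factors, −0.0773 for complex III, −0.0822 for ATP synthase and −0.0394 for all subunits, each with its sign turned. They kept their sign at −0.159 for complex II and 0.0241 for complex IV, with 3 members past the fold pericentrally and 7 periportally. That scaling moves the median of all genes by 0.088. With the 20 genes of most UMIs left out, they were −0.0342 for complex I, −0.0408 for its assembly factors, −0.103 for complex III, −0.0017 for complex IV, −0.108 for ATP synthase and −0.0653 for all subunits, signs turned, and −0.184 for complex II, with 3 and 9 members against 1540 and 1813 of 9530 genes, and a median of −0.026 over all genes. The cause was not tested. Within blocks the levels were 0.0566 (complex I), −0.0089 (III), 0.0395 (IV), −0.0459 (ATP synthase) and 0.0091 (all), and the share ratios 0.0475 (I), −0.018 (III), 0.0304 (IV) and −0.0551 (ATP synthase). With each pair weighted equally, they were 0.0933 (I), −0.0428 (II), 0.0292 (III), 0.127 (IV), 0.0335 (ATP synthase) and 0.0678 (all). With pairs split at the median score, they were 0.0662 (I), 0.0946 (IV) and 0.0417 (all), with 4 members pericentrally (1723 of all genes) and a complex II share ratio of −0.0898. Layer 1 over layer 6 gave −0.117 (II), −0.0322 (III), 0.0918 (IV), −0.0142 (ATP synthase) and 0.0289 (all), 7 members periportally (1434 of all genes), and share ratios of 0.0457 (I) and −0.0611 (III). Landmarks without Cyp2e1 and Pck1, an alternative chosen after seeing the data, gave 0.104 (I), 0.0381 (III), 0.167 (assembly factors), 0.0639 (all) and a complex IV share ratio of 0.0423. Thinning pairs to 2000 UMIs gave −0.0163 (II), 0.0181 (ATP synthase) and a complex II share ratio of −0.0699. With no minimum of UMIs, 6 members and 4404 of 18097 genes were past the fold periportally. Leaving out each block in turn gave 8 to 10 members pericentrally, 2 to 3 periportally, 0.0441 to 0.0551 for all subunits, and share ratios of 0.0285 to 0.035 (I), −0.124 to −0.1133 (II), −0.0432 to −0.0313 (III), 0.0564 to 0.069 (IV), −0.0473 to −0.0392 (ATP synthase) and −0.359 to −0.3098 (Atp5g1). In single cells, thinning to 300 UMIs gave 0.661 for conventional dendritic cell-like, 0.46 for T cell-like and 0.254 for B cell-like wells, the upper range of well numbers 0.641 for conventional dendritic cell-like and 0.0799 for Kupffer cell-like wells, and a minimum of 500 UMIs 0.788 for NK cell-like wells. Single-cell depth (median 526.5 UMIs) limits single members more than sums.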
